A study of Mus musculus with 12 samples.

Results

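The 10 Notch genes described here were taken by name from a table of 770 gene probes, and all 10 were in it. They are the receptors *Notch1*, *Notch2* and *Notch3*, the ligands *Jag1*, *Jag2* and *Dll1*, the glycosyltransferase *Lfng*, the coactivator *Maml2*, the target gene *Hes1* and *Numbl*, a relative of the Notch inhibitor *Numb*. Their mRNA was counted with NanoString® barcoded probes in 12 samples of mouse liver cancer cells, in 4 groups of 3 biological replicates each. The groups were AKT Cre/NRAS given *Dusp4* siRNA, AKT Cre/NRAS given SCR (the control siRNA), AKT/NRAS given *Dusp4* siRNA and AKT/NRAS given SCR, all grown in DMEM. AKT/NRAS is a line from a mouse hepatocellular carcinoma raised by hydrodynamic injection of a floxed, myristoylated AKT together with an activated NRAS, and AKT Cre/NRAS was made from it by transfection of Cre recombinase, which depleted AKT and left NRAS. DUSP4 is a phosphatase of the ERK pathway. Each genotype is represented by 1 line, so the loss of AKT and any other difference between these 2 lines cannot be told apart.

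Notch signalling passes between neighbouring cells. A ligand of the Jagged or Delta-like family on one cell binds a Notch receptor on the next, the receptor is cleaved by gamma-secretase, and its intracellular domain enters the nucleus, where it joins the DNA-binding protein RBPJ and a Mastermind coactivator to switch on targets such as *Hes1*. Fringe enzymes such as LFNG add sugars to the receptor that change which ligands it answers to. In the liver the pathway is known for its part in bile duct formation, with JAG1 and NOTCH2 as its main pair there.

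The depth, as the total count recovered per sample, was 804648 to 1021756 in AKT Cre/NRAS siRNA, 942402 to 1081644 in AKT Cre/NRAS SCR, 641790 to 868961 in AKT/NRAS siRNA and 646335 to 801287 in AKT/NRAS SCR. Values below are normalized counts, scaled by 15 reference genes, with a floor at 27.1 under which no level was measured, and because each probe has its own efficiency, levels were compared between samples and not between genes. *Dusp4*, the gene silenced, had 4126, 4174 and 3769 normalized counts in AKT Cre/NRAS siRNA against 6343, 5843 and 4483 in AKT Cre/NRAS SCR, and 350.2, 389 and 371 in AKT/NRAS siRNA against 1273, 1226 and 1186 in AKT/NRAS SCR. The fall was thus to 0.731-fold in AKT Cre/NRAS and to 0.302-fold in AKT/NRAS. Silenced AKT Cre/NRAS cells still had more *Dusp4* than AKT/NRAS cells under SCR. The fall in AKT Cre/NRAS also depended on the scaling. In the values as deposited, AKT Cre/NRAS SCR replicate 3 was at 4154, below siRNA replicates 2 and 3 at 4527 and 4547.5. *Akt1* averaged 388 ± 47.9 normalized counts in AKT Cre/NRAS SCR and 19831 ± 507 in AKT/NRAS SCR (SD, n = 3 each). The AKT Cre/NRAS SCR libraries stood apart from the others and from each other in the log2 ratio of *Rpl19*, a ribosomal protein gene, to *Polr2a*, the largest subunit of RNA polymerase II, which was 5.48, 6.36 and 6.88 there, against 4.72 to 5.03 in AKT Cre/NRAS siRNA, 3.86 to 3.92 in AKT/NRAS siRNA and 3.81 to 3.87 in AKT/NRAS SCR. Markers of other cell types were few on the panel. *Kdr* of endothelium, *Csf1r* and *Csf3r* of leukocytes and *Pdgfrb* and *Col1a2* of stellate cells were at the floor in all 12 samples. From the same lists, group means above the floor were 303 to 1322 normalized counts for *Flt1*, 90.0 to 106 for *Angpt2*, 1408 to 1717 for *Cd14* and 41.9 to 435 for *Pdgfra*. The hepatocyte transcription factor *Cebpa* averaged 556 ± 8.60 normalized counts in AKT Cre/NRAS siRNA, 422 ± 28.1 in AKT Cre/NRAS SCR, 731 ± 54.9 in AKT/NRAS siRNA and 746 ± 26.2 in AKT/NRAS SCR (SD, n = 3 each). *Ghr*, the growth hormone receptor, averaged 741 ± 46.1 in AKT Cre/NRAS siRNA, 715 ± 29.6 in AKT Cre/NRAS SCR, 55.8 ± 18.2 in AKT/NRAS siRNA and 57.4 ± 11.8 in AKT/NRAS SCR (SD, n = 3 each).

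Promoters are shown for 3 of the genes because RBPJ, the factor that carries the Notch signal to DNA, has a known core motif, TGGGAA. In one of the comparisons below 8 of the 9 members tested rose, but *Hes1* did not pass and 40.6% of all genes tested rose too. Whether the members share a regulator was not tested. Of the 10 genes, 9 had promoter windows in the RefSeq table (GRCm38.p6), *Hes1* being the other, and these windows numbered 11, since *Dll1* and *Maml2* have 2 starts each. The 250 bases before each start were searched on both strands. The motif was in 2 of the 11 windows (18.2%), against 21.6% of all 32851 windows of that length, and a match is a match of letters only. *Lfng* held it 2 times, starting 135 bases before the transcript start on the minus strand and 108 bases before it on the plus strand. *Maml2* held it 1 time, at its second start, and *Notch1*, the receptor with the largest difference between the lines, held none. Each line gives the window of 250 bases 5′ to 3′ on the gene's own strand, with matches in capitals (TTCCCA is the motif read from the other strand).
Lfng, chr5:140607091-140607340, plus strand: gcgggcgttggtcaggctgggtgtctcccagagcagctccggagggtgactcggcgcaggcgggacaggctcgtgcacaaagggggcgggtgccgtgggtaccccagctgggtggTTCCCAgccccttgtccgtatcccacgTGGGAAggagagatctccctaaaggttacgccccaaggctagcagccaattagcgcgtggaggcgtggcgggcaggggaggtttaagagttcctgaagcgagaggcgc
Maml2, chr9:13662210-13662459, plus strand: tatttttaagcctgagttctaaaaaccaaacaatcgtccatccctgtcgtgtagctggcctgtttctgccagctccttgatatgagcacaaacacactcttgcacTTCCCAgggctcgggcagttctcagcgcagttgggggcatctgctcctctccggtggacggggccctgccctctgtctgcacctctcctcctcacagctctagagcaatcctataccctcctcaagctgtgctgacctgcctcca
Notch1, chr2:26503823-26504072, minus strand: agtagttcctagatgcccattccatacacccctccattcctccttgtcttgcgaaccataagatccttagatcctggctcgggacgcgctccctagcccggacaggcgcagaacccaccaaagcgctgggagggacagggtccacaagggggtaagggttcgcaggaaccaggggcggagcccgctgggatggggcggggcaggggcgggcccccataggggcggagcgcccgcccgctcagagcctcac

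*Notch1*, the receptor for which the pathway is best known, was 70.3, 64.1 and 50.03 normalized counts in AKT Cre/NRAS siRNA, 36.7, 32.2 and 32.3 in AKT Cre/NRAS SCR, 282, 269 and 236 in AKT/NRAS siRNA and 241, 239 and 226 in AKT/NRAS SCR. Every AKT Cre/NRAS sample lay below every AKT/NRAS sample, and the 3 AKT Cre/NRAS SCR samples were just above the floor. In bulk RNA of this kind, fewer cells with a transcript and less transcript per cell cannot be told apart. These low values rest on 63, 65 and 58 recovered counts in AKT Cre/NRAS siRNA and on 39, 36 and 29 in AKT Cre/NRAS SCR, and their exact 95% Poisson intervals, which cover counting error only, ran over 44.0 to 82.8 and over 19.4 to 53.3. *Notch2*, the receptor paired with JAG1 in bile duct formation, was 608, 533 and 468 normalized counts in AKT Cre/NRAS siRNA, 364, 282 and 290 in AKT Cre/NRAS SCR, 926, 925 and 892 in AKT/NRAS siRNA and 880, 931 and 908 in AKT/NRAS SCR. Its order was that of *Notch1*: the AKT/NRAS groups, which overlapped, stood highest, AKT Cre/NRAS siRNA came next without overlap, and AKT Cre/NRAS SCR was lowest without overlap. *Notch3* was at the floor in all 12 samples, so its count was at most 15 to 24 depending on the library, where the negative control probes reached up to 20. It could not be told from background and entered no test.

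Among the ligands, *Jag1* stood opposite to the receptors. It was 2677, 2464 and 2412 normalized counts in AKT Cre/NRAS siRNA, 2104, 1856 and 1667 in AKT Cre/NRAS SCR, 1640.2, 1621 and 1587 in AKT/NRAS siRNA and 1314, 1379 and 1347 in AKT/NRAS SCR, and no neighbours in that order overlapped. *Jag2*, the other Jagged ligand, was 96.0, 111 and 91.4 in AKT Cre/NRAS siRNA, 60.3, 50.1 and 51.3 in AKT Cre/NRAS SCR, 164, 181 and 142 in AKT/NRAS siRNA and 178, 158 and 187 in AKT/NRAS SCR. The 2 Jagged ligands thus ran in opposite orders between the lines. *Dll1*, the Delta-like ligand, was 138, 127 and 115 in AKT Cre/NRAS siRNA, 81.0, 73.4 and 74.7 in AKT Cre/NRAS SCR, 72.1, 80.3 and 66.1 in AKT/NRAS siRNA and 68.6, 81.2 and 76.6 in AKT/NRAS SCR. Only its AKT Cre/NRAS siRNA group stood clear of the other 3, which overlapped.

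The modifier, coactivator and target genes were all measured in every sample. *Lfng* was 133, 156 and 150.1 normalized counts in AKT Cre/NRAS siRNA, 117, 113 and 109 in AKT Cre/NRAS SCR, 304, 285 and 289 in AKT/NRAS siRNA and 349, 319 and 353 in AKT/NRAS SCR, with no overlap between neighbouring groups. *Maml2*, a Mastermind coactivator, was 357, 316 and 292 in AKT Cre/NRAS siRNA, 249, 201 and 193 in AKT Cre/NRAS SCR, 316, 351 and 333 in AKT/NRAS siRNA and 390.2, 372 and 335 in AKT/NRAS SCR, so that only AKT Cre/NRAS SCR stood apart. *Numbl* was 244, 300.0 and 305 in AKT Cre/NRAS siRNA, 231, 192 and 155 in AKT Cre/NRAS SCR, 288, 292 and 266 in AKT/NRAS siRNA and 376, 384 and 376 in AKT/NRAS SCR. Its AKT Cre/NRAS SCR samples spread the most among themselves, with a coefficient of variation of 19.7%. *Hes1*, the direct target of the pathway, was 224, 275 and 238 in AKT Cre/NRAS siRNA, 218, 261 and 224 in AKT Cre/NRAS SCR, 392, 347 and 355 in AKT/NRAS siRNA and 359, 335 and 362 in AKT/NRAS SCR. It separated the lines and not the siRNA groups.

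**Figure D1:**
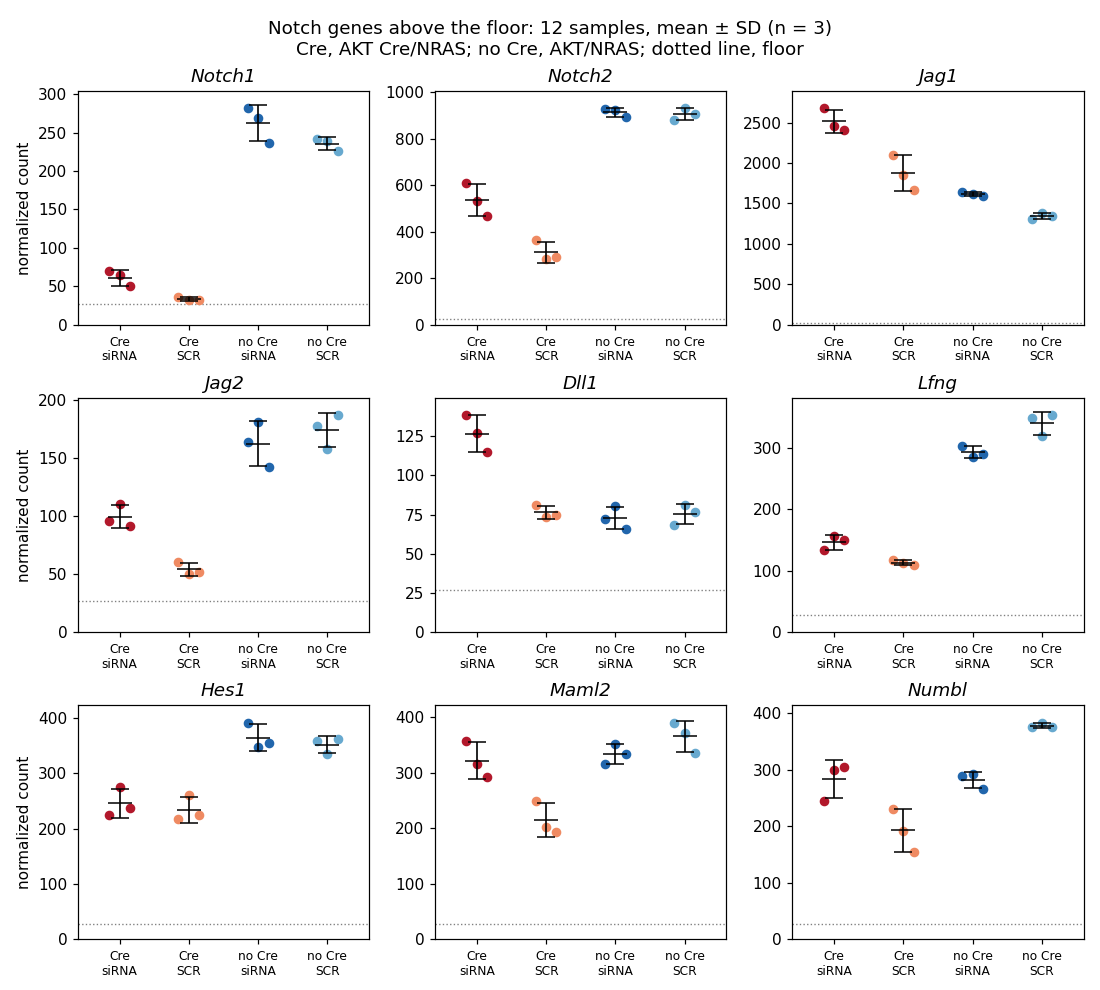
Normalized counts (y axis, linear from 0) of the 9 Notch genes above the floor in AKT Cre/NRAS siRNA, AKT Cre/NRAS SCR, AKT/NRAS siRNA and AKT/NRAS SCR (x axis). Points are samples, bars are mean ± SD (n = 3) and the dotted line is the floor of 27.1. *Notch1* and *Notch2* are lowest in AKT Cre/NRAS SCR, *Jag1* is highest in AKT Cre/NRAS siRNA, and *Hes1* differs between the lines with siRNA and SCR samples overlapping in each.

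The first comparison asked what *Dusp4* siRNA did to these genes in AKT Cre/NRAS cells. Of the 9 members tested, 8 rose, none fell and *Hes1* did not pass the test. The ligand *Jag2* was at 1.83-fold, with 99.3 ± 9.97 normalized counts in siRNA and 53.9 ± 5.55 in SCR (SD, n = 3 each), beside the receptors *Notch1*, at 61.5 ± 10.4 and 33.8 ± 2.57, and *Notch2*, at 536 ± 69.9 and 312 ± 45.5. The ligand *Dll1* was at 127 ± 11.8 in siRNA and 76.4 ± 4.05 in SCR. Expressed as log2 differences from the limma fit with Benjamini-Hochberg adjustment over the 503 genes tested, *Jag2* rose by 0.87 ± 0.13 (SE, adjusted p = 0.0033), *Notch1* by 0.83 ± 0.15 (adjusted p = 0.0035), *Notch2* by 0.78 ± 0.13 (adjusted p = 0.0035) and *Dll1* by 0.72 ± 0.13 (adjusted p = 0.0035). The rises of *Maml2* (0.59), *Numbl* (0.57), *Jag1* (0.43) and *Lfng* (0.37) had adjusted p values of 0.0074, 0.018, 0.0081 and 0.032. For *Hes1* the difference was 0.07 with a 95% interval of -0.21 to 0.35 (adjusted p = 0.681).

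These counts have to be read against the panel, because 40.6% of all genes tested rose in this comparison and 5.37% fell. The median log2 difference of the 9 members was 0.59, beside 0.23 over all genes tested. Relative to that panel median, *Jag2* was 0.64 higher, *Notch1* 0.60, *Notch2* 0.55, *Dll1* 0.49, *Maml2* 0.36, *Numbl* 0.33, *Jag1* 0.20 and *Lfng* 0.13, and *Hes1* was at -0.16. By rank, 0.596% of the genes tested had a higher difference than *Jag2*, 0.994% than *Notch1*, 1.99% than *Notch2* and 3.78% than *Dll1*, whereas 26.8% were above *Jag1*, 34.2% above *Lfng* and 68.4% above *Hes1*. The siRNA and SCR samples did not overlap for 8 of the 9 members, as was so for 60% of all genes tested.

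The calls were less firm for some members than for others. On leaving out 1 sample, *Jag1* lost its call without siRNA replicate 1, *Numbl* without siRNA replicate 2 or 3, and *Lfng* without siRNA replicate 1, 2 or 3 or SCR replicate 2. Among the markers of hepatocytes and of other cell types, *Cebpa* (0.40), *Sox9* (0.62), *Flt1* (0.59) and *Pdgfra* (0.48) rose too, while *Prom1* (0.36), *Spp1* (-0.35), *Angpt2* (-0.11), *Ghr* (0.05), *Cd14* (-0.04) and *Col1a1* (0.04) did not pass. By whole list, the 3 endothelial genes on the panel summed to 502 to 614 normalized counts in siRNA and 353 to 500 in SCR. The 4 stellate cell genes summed to 496 to 567 in siRNA and 323 to 462 in SCR. The 3 progenitor and biliary genes (*Prom1*, *Spp1*, *Sox9*) summed to 101972 to 115872 in siRNA and 120377 to 161827 in SCR, nearly all of it *Spp1*. For the 3 hepatocyte genes the sums were 1366 to 1450 in siRNA and 1159 to 1260 in SCR, and for the 4 leukocyte genes 1711 to 1790 and 1709 to 1871. Genes at the floor entered these sums at 27.1 each. The part of these markers in the result was not tested.

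The call depended on the scaling, although none of the 8 members that rose had a negative difference under any of the 7 scalings compared. With each sample centred on its median gene, the panel median was -0.10 and 32 genes rose while 136 fell, against 204 and 27 with the reference genes, and the members called were *Notch1*, *Notch2*, *Jag2* and *Dll1*. Quantile normalization gave 52 genes up and 38 down, with *Maml2* called beside those 4 members. With the values as deposited, which lack the reference gene step, no member was called, and 70 genes of the panel had an unadjusted p under 0.05. Except for quantile normalization, each scaling multiplies a sample by a single factor. This shifts the log2 differences of all genes nearly alike, so positions within the panel could hardly move and are no separate support. Over the 7 scalings, 0.392% to 0.6% of genes were above *Jag2* and 1.4% to 3.58% above *Notch2*. For *Dll1* the range was 2.26% to 3.78%, and for *Notch1* it was 0.189% to 9.8%. The AKT Cre/NRAS SCR libraries 2 and 3 have the highest *Rpl19* to *Polr2a* ratios. Without them 1 SCR sample was left, at a ratio of 5.48, still above the siRNA samples, so only effect sizes are given here. The log2 differences were then 0.71 for *Notch1*, 0.55 for *Notch2*, 0.26 for *Jag1*, 0.71 for *Jag2* and 0.64 for *Dll1*. They were 0.32 for *Lfng*, 0.37 for *Maml2*, 0.29 for *Numbl* and 0.17 for *Hes1*. What the uneven SCR libraries contributed beyond this was not tested.

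In AKT/NRAS cells, where *Dusp4* fell further as a fold change, 2 of the 9 members passed the test. *Jag1* rose, with 1616 ± 26.8 normalized counts in siRNA and 1346 ± 32.4 in SCR (SD, n = 3 each), a log2 difference of 0.26 ± 0.03 (SE, limma adjusted p = 0.0037). *Numbl* fell, with 282 ± 14.2 in siRNA and 378 ± 4.59 in SCR, a log2 difference of -0.42 ± 0.06 (SE, limma adjusted p = 0.0064). In this comparison 5.44% of the 496 genes tested rose and 11.9% fell, and 5.44% had a higher difference than *Jag1* while 96.8% had a higher one than *Numbl*. *Lfng* was lower in all 3 siRNA samples than in any SCR sample, at -0.22, and missed the threshold (adjusted p = 0.0524). It was called lower in 4 alternatives, with all 20, the first 10 or the first 5 reference genes (adjusted p = 0.046, 0.024 and 0.048) and with only genes averaging at least 50 (adjusted p = 0.027), and was at 0.12 with the values as deposited. Of the other members, *Notch1* was at 0.15 (95% interval -0.04 to 0.34), *Notch2* at 0.01 (-0.08 to 0.10), *Jag2* at -0.10 (-0.35 to 0.15), *Dll1* at -0.05 (-0.29 to 0.18), *Hes1* at 0.05 (-0.10 to 0.20) and *Maml2* at -0.13 (-0.30 to 0.04). The groups did not overlap for 3 of the 9 members, as for 34.7% of all genes tested. Among the markers named above, *Spp1* (0.28) and *Flt1* (-0.44) passed the threshold and no other did. Their part was not tested. *Jag1* kept its rise and *Numbl* its fall in sign under all 7 scalings, and *Numbl* lost its call with the values as deposited, where it was at -0.09. With these values 287 genes of the panel rose and 3 fell, against 27 and 59 with the reference genes and 47 and 41 with median centring. When all 4 groups were fitted together, neither *Jag1* nor *Numbl* passed.

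**Figure D2:**
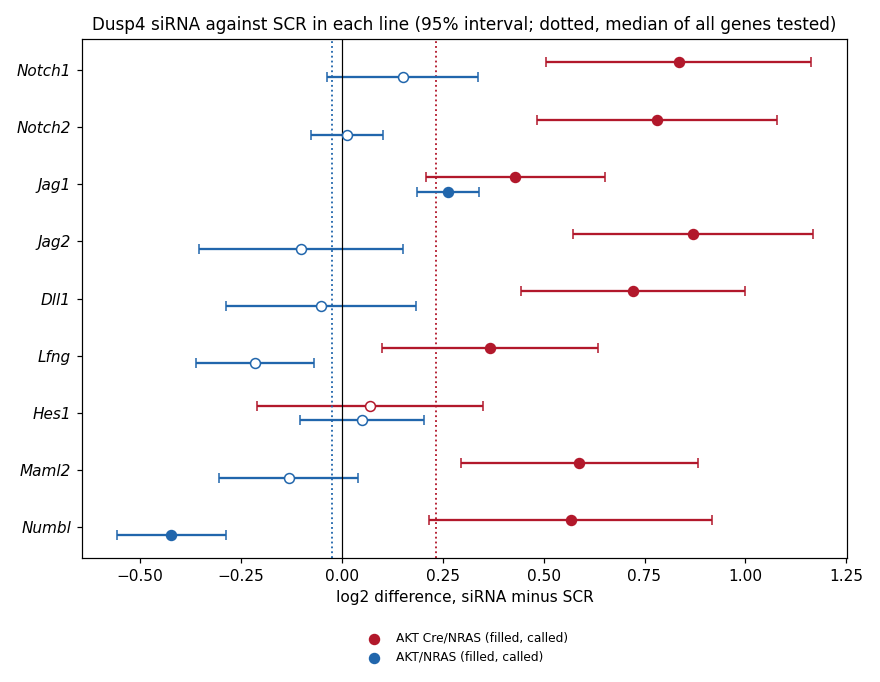
Log2 difference, siRNA minus SCR (x axis), of the 9 members (y axis) in AKT Cre/NRAS and in AKT/NRAS, with 95% intervals from limma. Filled points passed an adjusted p of 0.05, and dotted lines are the medians of all genes tested, 0.23 in AKT Cre/NRAS and -0.03 in AKT/NRAS. In AKT Cre/NRAS 8 members lie to the right of 0 and filled, and in AKT/NRAS *Jag1* lies right and *Numbl* left.

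Whether the siRNA response differed between the lines was tested directly, by fitting all 12 samples with a term for line by siRNA. *Dusp4* itself fell to 0.731-fold in AKT Cre/NRAS and to 0.302-fold in AKT/NRAS. A difference between the lines in response therefore cannot be told apart from this difference in silencing. The response was more positive in AKT Cre/NRAS for 7 members, by 0.99 ± 0.18 on the log2 scale for *Numbl* (SE, limma adjusted p = 0.003), 0.97 ± 0.16 for *Jag2* (adjusted p = 0.002), 0.77 ± 0.14 for *Dll1* (adjusted p = 0.0026), 0.77 ± 0.15 for *Notch2* (adjusted p = 0.0031), 0.72 ± 0.15 for *Maml2* (adjusted p = 0.0042), 0.68 ± 0.17 for *Notch1* (adjusted p = 0.0088) and 0.58 ± 0.11 for *Lfng* (adjusted p = 0.0031). *Jag1* was at 0.17 (95% interval -0.07 to 0.40) and *Hes1* at 0.02 (-0.28 to 0.32), and neither passed. Of the 525 genes tested, 40.6% had a positive interaction past the threshold and 4.76% a negative one, and the median was 0.25 over all of them and 0.72 over the members. *Numbl* was exceeded by 0.952% of the genes and *Jag2* by 1.52%, while 19.8% were above *Lfng*. Of the markers named above, *Flt1* (1.03), *Pdgfra* (0.92), *Sox9* (0.87) and *Cebpa* (0.43) passed as positive and *Spp1* (-0.63) as negative. The others did not pass, and the part of these markers was not tested. All 7 members that passed stayed positive under the 7 scalings. Centred on the median gene, *Notch2*, *Jag2* and *Numbl* passed as positive while *Jag1* (-0.25) and *Hes1* (-0.39) passed as negative, and with the values as deposited none of the 9 passed, where 94 genes of the panel had an unadjusted p under 0.05. Over the panel 213 interactions were positive and 25 negative, against 50 and 151 with median centring, 98 and 92 with quantile normalization and 2 and 30 with the values as deposited, and the panel median ran over -0.13 to 0.70.

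Because a ratio of 2 genes within a sample does not move with any scaling of that sample, each member was also set against *Hes1*, which passed the siRNA test in neither line. This choice was made after the values were seen, and since *Hes1* lay below the panel median in AKT Cre/NRAS, ratios to it describe the members again and are no separate support for their rise. In AKT Cre/NRAS, 7 of the 8 ratios were higher in all siRNA samples than in any SCR sample, and that of *Jag1* overlapped. Among the 469 other genes above the floor in all 6 samples, members included, 16.4% had a ratio to *Hes1* that was higher without overlap and 10.2% a lower one. For *Jag2* the log2 ratio to *Hes1* was -1.22, -1.32 and -1.38 in siRNA against -1.85, -2.38 and -2.13 in SCR, a difference of 0.81, and for *Notch1* it was -1.67, -2.10 and -2.25 in siRNA against -2.57, -3.01 and -2.79 in SCR, a difference of 0.78. The *Numbl* ratio was 0.12, 0.12 and 0.36 in siRNA against 0.08, -0.44 and -0.53 in SCR, so SCR replicate 1 lay close to the siRNA samples. In AKT/NRAS the *Jag1* ratio was higher in all siRNA samples, by 0.21, those of *Lfng* and *Numbl* were lower, by -0.27 and -0.47, and the other 5 overlapped. There 3.85% of 467 genes had a higher ratio without overlap and 22.5% a lower one. Exact permutation tests of these 16 ratios, adjusted by Benjamini-Hochberg, gave a lowest adjusted p of 0.16. With 3 samples per group such a test cannot give a p under 0.1, so none could have passed.

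**Figure D3:**
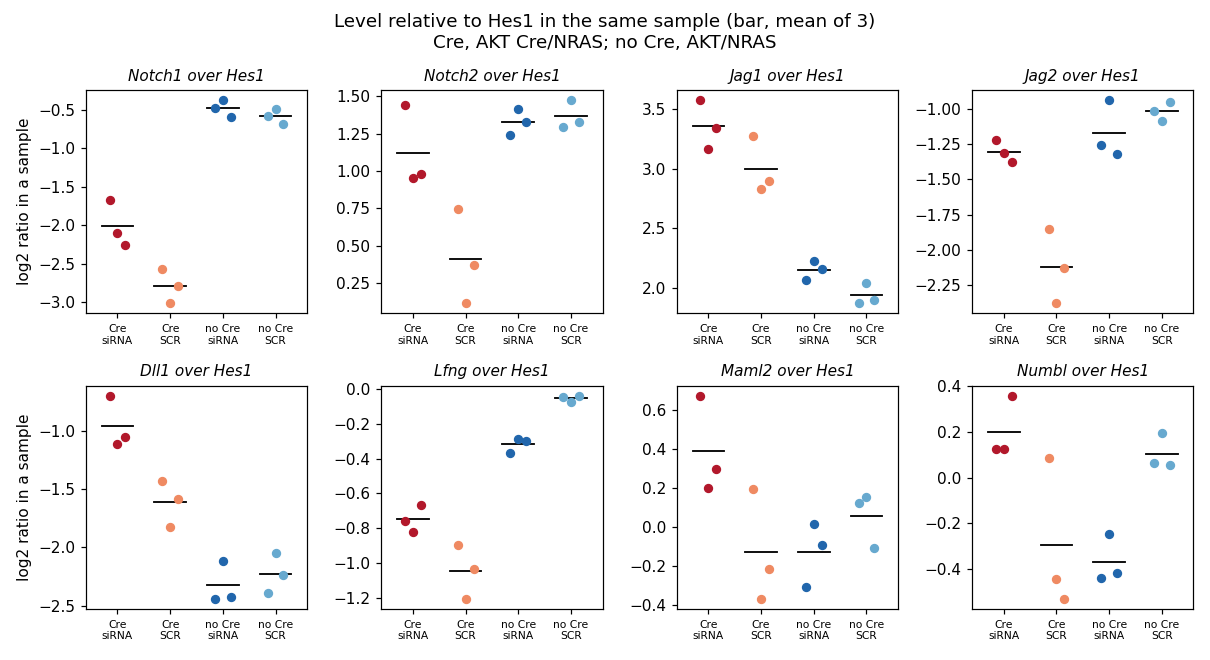
Log2 ratio of each of 8 members to *Hes1* in the same sample (y axis) in the 4 groups (x axis), where points are samples and bars are means of 3. For *Notch1*, *Notch2*, *Jag2*, *Dll1*, *Lfng*, *Maml2* and *Numbl* the AKT Cre/NRAS siRNA samples lie above the AKT Cre/NRAS SCR samples, and for *Jag1* these groups overlap.

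Ratios among the members and to *Polr2a* gave a further view. The log2 ratio of *Notch1* to *Notch2* in AKT Cre/NRAS was -3.11, -3.05 and -3.23 in siRNA and -3.31, -3.13 and -3.16 in SCR, so the siRNA and SCR samples overlapped. The ratio of *Jag2* to *Jag1* did not overlap, with -4.80, -4.48 and -4.72 in AKT Cre/NRAS siRNA against -5.13, -5.21 and -5.02 in AKT Cre/NRAS SCR, and in AKT/NRAS it lay the other way, with -3.32, -3.16 and -3.48 in siRNA against -2.89, -3.13 and -2.85 in SCR. The log2 ratio of *Notch2* to *Polr2a* also overlapped in AKT Cre/NRAS, at -1.28, -1.36 and -1.40 in siRNA and -1.49, -1.34 and -1.35 in SCR. *Polr2a* itself rose there by 0.74 on the log2 scale (limma adjusted p = 0.0038). The part of library composition in the rise of *Notch2* was not tested. In AKT/NRAS the ratio of *Notch2* to *Polr2a* was higher in all siRNA samples than in any SCR sample, by 0.07.

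The lines were compared first under SCR. The largest difference was in *Notch1*, with 33.8 ± 2.57 normalized counts in AKT Cre/NRAS and 236 ± 8.15 in AKT/NRAS (SD, n = 3 each), a level 0.147-fold that of AKT/NRAS. *Jag2*, *Lfng* and *Notch2* were 0.313-fold, 0.334-fold and 0.343-fold, *Numbl* was 0.503-fold, *Maml2* 0.584-fold and *Hes1* 0.664-fold, and *Jag1* alone was higher, at 1.39-fold. These are 7 members lower and 1 higher of 9 tested. On the log2 scale *Notch1* was at -2.77 ± 0.10 (SE, limma adjusted p = 5.9e-08), *Lfng* at -1.58 ± 0.10 (adjusted p = 1.2e-06), *Jag2* at -1.67 ± 0.12 (adjusted p = 3.0e-06) and *Notch2* at -1.54 ± 0.11 (adjusted p = 3.1e-06). *Numbl* (-0.99), *Maml2* (-0.77), *Hes1* (-0.59) and *Jag1* (0.47) had adjusted p values of 0.00024, 0.00044, 0.00075 and 0.0016. *Dll1* was at 0.02 (95% interval -0.22 to 0.26, adjusted p = 0.873).

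Most of the panel differed between the lines under SCR, with 48% of the 515 genes tested lower in AKT Cre/NRAS, 28.9% higher and 79.8% without overlap, so a call was common here. Their sizes can be placed in it: 97.1% of the genes had a higher difference than *Notch1*, 92.2% than *Jag2*, 90.7% than *Lfng* and 90.5% than *Notch2*, while 22.7% were above *Jag1*. The members' median was -0.99, beside -0.22 over all genes tested. The panel split into 149 genes higher and 247 lower with the reference genes, 202 and 99 with the values as deposited and 69 and 256 with the 5 reference genes ranked first, and its median ran over -0.62 to 0.25. All 8 called members kept their sign under the 7 scalings, whereas *Dll1* did not, and *Notch1*, *Notch2*, *Jag2* and *Lfng* were called lower under every one of them. *Jag1* lost its call with the 10 or 5 reference genes ranked first, *Hes1* with the values as deposited and with median centring, and *Maml2* and *Numbl* with the values as deposited. *Dll1* was called higher with the values as deposited (0.52) and with median centring (0.37). Markers of hepatocytes and of other cell types moved between the lines as well, with log2 differences of 3.20 for *Spp1*, 2.47 for *Pdgfra*, 0.91 for *Prom1*, 0.29 for *Cd14*, 3.64 for *Ghr*, -0.82 for *Cebpa* and -2.14 for *Flt1* past the threshold, and their part in the members' differences was not tested. The groups did not overlap for 8 of 9 members. Without AKT Cre/NRAS SCR libraries 2 and 3, which leaves 1 sample of that group, the 8 called members kept their signs, with *Notch1* at -2.65. Since this comparison and that of siRNA in AKT Cre/NRAS share the AKT Cre/NRAS SCR samples, a low value there moves both.

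Under *Dusp4* siRNA, which uses none of those SCR samples, 5 members were lower in AKT Cre/NRAS and 2 were higher. *Notch1* was again the most different, with 61.5 ± 10.4 normalized counts in AKT Cre/NRAS and 262 ± 23.5 in AKT/NRAS (SD, n = 3 each), a log2 difference of -2.08 ± 0.14 (SE, limma adjusted p = 5.8e-06). *Lfng* was at -0.998 (adjusted p = 1.6e-05), *Notch2* at -0.78 (adjusted p = 0.00014), *Jag2* at -0.70 (adjusted p = 0.00091) and *Hes1* at -0.57 (adjusted p = 0.00085). The ligands *Dll1*, at 0.79 (adjusted p = 0.00027), and *Jag1*, at 0.64 (adjusted p = 8.1e-06), were higher. *Maml2* was at -0.06 (95% interval -0.26 to 0.15) and *Numbl* at -0.001 (-0.23 to 0.23), and neither passed. Of the 522 genes tested, 37.9% were lower in AKT Cre/NRAS, 36.6% higher and 76.6% without overlap, while the groups did not overlap for 7 of the 9 members. The same 7 members were called in the same direction under all 7 scalings. The markers here were at 2.57 for *Spp1*, 3.39 for *Pdgfra*, 1.27 for *Prom1*, 0.64 for *Sox9*, 0.18 for *Cd14*, 3.75 for *Ghr*, -0.39 for *Cebpa* and -1.11 for *Flt1*, all past the threshold, and their part was not tested either.

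**Figure D4:**
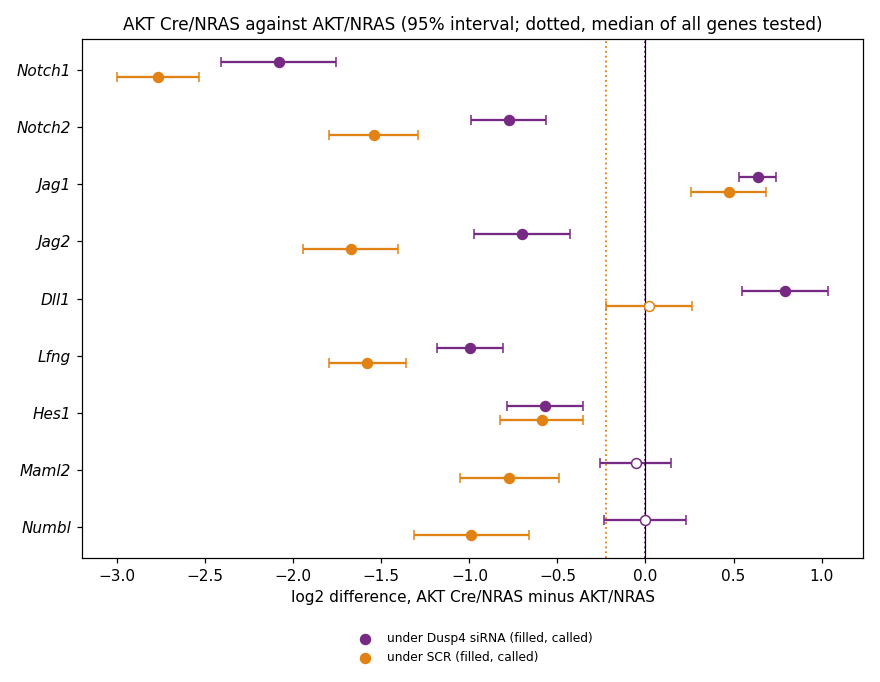
Log2 difference, AKT Cre/NRAS minus AKT/NRAS (x axis), of the 9 members (y axis) under *Dusp4* siRNA and under SCR, with 95% intervals from limma, filled points past an adjusted p of 0.05 and dotted lines at the medians of all genes tested. *Notch1* lies farthest left in both, at -2.08 under siRNA and -2.77 under SCR, and *Jag1* lies right of 0 in both.

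Within samples, the receptors also differed in proportion between the lines. Under SCR the log2 ratio of *Notch1* to *Notch2* averaged -3.20 ± 0.10 in AKT Cre/NRAS and -1.94 ± 0.07 in AKT/NRAS, and under siRNA it averaged -3.13 ± 0.09 in AKT Cre/NRAS and -1.81 ± 0.10 in AKT/NRAS (SD, n = 3 each), with no overlap in either. Under SCR the ratio of *Jag2* to *Jag1* averaged -5.12 ± 0.09 in AKT Cre/NRAS and -2.95 ± 0.15 in AKT/NRAS, again without overlap. The ratio of *Notch2* to *Polr2a* lay the other way from *Notch2* itself and was higher in AKT Cre/NRAS, without overlap. It averaged -1.39 ± 0.08 against -1.74 ± 0.04 in AKT/NRAS under SCR, and -1.34 ± 0.06 against -1.67 ± 0.03 under siRNA (SD, n = 3 each). These are differences between lines in a ratio of 2 probes, not the ratio of the transcripts themselves.

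Other genes of the pathway were taken from a list of 48, of which 18 were on the panel and 12 could be tested. The ligands *Dll3* and *Dll4*, the fringe *Mfng*, the ligase gene *Dtx1*, the target *Hes5* and the thymocyte target *Ptcra* were at the floor in all 12 samples. With siRNA in AKT Cre/NRAS, 5 of the 12 rose and none fell: *Crebbp* (0.71) and *Ep300* (0.70), acetyltransferases that join the Notch coactivator complex, *Dvl3* (0.57), a Dishevelled protein, *Ncor1* (0.47), a corepressor, and *Dtx4* (0.37), a Deltex ligase. Their median over the 12 was 0.31, beside the panel's 0.23 and against 40.6% of genes that rose. With siRNA in AKT/NRAS, *Hdac1*, a histone deacetylase, rose by 0.14 and *Dtx4* (-0.21), *Ncor1* (-0.14) and *Ep300* (-0.14) fell, where 5.44% of the panel rose and 11.9% fell. Under SCR 9 of the 12 were lower in AKT Cre/NRAS and *Dtx3* (0.63) and *Dtx4* (0.64) were higher, beside 48% and 28.9% of the panel. Under siRNA 6 were lower and 3 higher, beside 37.9% and 36.6%. The interaction was positive for 5, with *Ep300* at 0.83 and *Crebbp* at 0.77, a share of the 12 near the 40.6% of the panel.

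The panel genes whose levels followed the receptors most closely over the 12 samples were, for *Notch1*, *Sos1* (Pearson r = 0.995), *Ccnd2* (0.994) and *Mtor* (0.993), and for *Notch2*, *Arid1a* (0.994), *Polr2a* (0.992) and *Gsk3b* (0.99), out of 437 genes above the floor in all 12. These values describe log2 normalized counts, and the points share 2 lines, their libraries and the scaling.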

How the data were processed

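RNA of 12 samples was counted on the NanoString® nCounter Mouse PanCancer Pathways panel, with 770 gene probes, 6 positive and 8 negative controls. Per the labels and the study's methods, the authors used nSolver 4.0 with Advanced Analysis 2.0. The deposited values are a signal: barcode counts multiplied by a sample's positive-control factor, and set to 20 wherever they were 20 or lower. Below 800, 100% of values above that floor gave a whole count within 0.05. Counts at the floor are unknown, so a count test was not used.

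The deposited values lack the reference gene scaling that the methods name, and it was completed with geNorm over all 12 samples, keeping 15 of 20 reference genes. *Rpl19* was kept and *Polr2a* was not. After scaling, *Rpl19* was itself lower with siRNA in AKT Cre/NRAS, at -0.61 on the log2 scale (limma adjusted p = 0.034). It ran over 45504 to 86725 normalized counts in AKT Cre/NRAS SCR. What *Rpl19* alone contributed to the scaling was not tested. The highest floor after scaling, 27.1, was then set for all samples. A gene entered a comparison only if some sample of it was above this floor. The log2 of each value plus 1 was tested in limma 3.58.1 (R 4.3.3, eBayes with trend) on the samples compared, without a block. The Benjamini-Hochberg threshold was 0.05, and the fit was tested on simulated data. These had independent noise for each gene and no uneven libraries, so they cannot speak to the scaling or to library composition. All members tested are named, and at most 6 other genes of the pathway per comparison. The members, lists and tests were chosen with earlier results of these data known. The fits without AKT Cre/NRAS SCR libraries 2 and 3 and the ratios within samples were chosen after seeing the data. Promoters were searched with Python 3.11.15.

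Replicates are biological per the methods, with no pairing stated. In the siRNA comparison of AKT Cre/NRAS, samples of the same number deviated together (r = 0.221, 0.116 and 0.229), so there the numbers pair the samples by the rule used. In each other comparison at least 1 pair had r of 0.027 or less. The replicate block changed no call of a member. Some marker genes on the panel are not reported here.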

Additional observations from a re-analysis of the deposited data

Results flagged for a closer look

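For 7 members the response to *Dusp4* siRNA differed between the lines by the interaction test. As a fold change *Dusp4* fell further in AKT/NRAS, and this difference in silencing cannot be told apart from one in response. In normalized counts *Dusp4* averaged 4023 in AKT Cre/NRAS siRNA and 5556 in AKT Cre/NRAS SCR. In AKT/NRAS it averaged 370 in siRNA and 1228 in SCR. The response in AKT Cre/NRAS minus that in AKT/NRAS was 0.99 for *Numbl*, 0.97 for *Jag2*, 0.77 for *Dll1*, 0.77 for *Notch2*, 0.72 for *Maml2*, 0.68 for *Notch1* and 0.58 for *Lfng*, on the log2 scale. Of all 525 genes tested, 40.6% had a positive interaction past the threshold. With median centring 50 genes were positive and 151 negative, and with the values as deposited 0 members passed. *Numbl* is the case with opposite calls, a rise of 0.57 with siRNA in AKT Cre/NRAS and a fall of -0.42 in AKT/NRAS. All 7 values rest on the same AKT Cre/NRAS SCR libraries. Without libraries 2 and 3, which leaves 1 sample of that group, *Notch1* was at 0.56 and the other 6 were at 0.50 to 0.81.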

How the results depend on the processing

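The 7 members called between the lines under siRNA kept their calls in each of 18 alternatives. In AKT Cre/NRAS, the siRNA comparison called 231 genes and 8 members. The values as deposited called 1 gene and 0 members, median centring 4 members, quantile normalization 90 genes and 5 members, no filter on low values 56 and 4, Benjamini-Yekutieli adjustment 70 and 4, and the fit without AKT Cre/NRAS SCR libraries 2 and 3 called 110 and 5. The fit without libraries 2 and 3 leaves 1 AKT Cre/NRAS SCR sample, so that group has no spread of its own. The counts of that fit therefore cannot show whether calls hold without these libraries, and no conclusion is drawn from them. Leaving out 1 sample gave 99 to 297 genes and 6 to 8 members. In AKT/NRAS, 86 genes and 2 members were called, against 290 and 4 with the values as deposited, 45 genes without the filter, 23 and 0 with one fit over all groups, 10 genes with Benjamini-Yekutieli, and 39 to 92 genes on leaving out 1 sample. The interaction called 238 genes and 7 members, against 32 and 0 with the values as deposited and 101 genes with Benjamini-Yekutieli. The replicate block gave 263, 73, 397, 404 and 244 genes in the siRNA comparisons of AKT Cre/NRAS and AKT/NRAS, the line comparisons under SCR and siRNA, and the interaction, and 8, 2, 8, 7 and 7 members. Signs turned only for members not called with the 15 reference genes. With siRNA in AKT Cre/NRAS, *Hes1* was at -0.017 with the values as deposited, -0.28 with median centring, -0.00023 with all 20 reference genes, -0.15 with quantile normalization, and -0.014 to 0.15 on leaving out 1 sample. In AKT/NRAS, the values as deposited gave *Jag2* 0.23, *Dll1* 0.28, *Lfng* 0.12 and *Maml2* 0.20, median centring gave *Dll1* 0.0059, and *Notch2* was at -0.024 with the 10 and -0.019 with the 5 reference genes ranked first. Leaving out 1 sample gave *Notch2* -0.0086 to 0.032, *Dll1* -0.12 to 0.016 and *Hes1* -0.0024 to 0.084. Between the lines under SCR, *Dll1* was at -0.26 with 10 reference genes, -0.39 with 5, and -0.046 to 0.073 on leaving out 1 sample. It passed as higher with the values as deposited (0.52) and with median centring (0.37). Under siRNA, *Maml2* was at 0.028, 0.046 and 0.0079 and *Numbl* at 0.082, 0.0998 and 0.062 with the values as deposited, all 20 and 5 reference genes, and leaving out 1 sample gave -0.13 to 0.011 for *Maml2* and -0.059 to 0.10 for *Numbl*. In the interaction, *Jag1* was at -0.26 with the values as deposited, -0.25 with median centring, -0.081 with quantile normalization and -0.0063 without AKT Cre/NRAS SCR libraries 2 and 3. *Hes1* was there at -0.40 with the values as deposited, -0.39 with median centring, -0.051 with all 20 reference genes, -0.25 with quantile normalization, and -0.064 to 0.099 on leaving out 1 sample. With median centring both passed the threshold as negative. The cause was not tested. Depth limits *Notch1* most, at 29 to 39 counts in AKT Cre/NRAS SCR.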
